A study of Sus scrofa with 13 samples.

Results

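The genes described here are the splicing factors and related RNA-binding proteins named SRSF, HNRNP or RBM, measured by RNA-seq in pig longissimus lumborum, the loin muscle. A gene was included when its symbol, in the deposited tables or in the reference list of gene names, started with 1 of these 3 letter groups. The rule found 63 of the 25322 gene identifiers counted, of which 9 were SRSF, 18 were HNRNP and 36 were RBM. Among the genes sought by name for a known role, SRSF2, HNRNPL and RBM4 matched no identifier and were not analysed here. Other genes of these families without a matching symbol were missed in the same way, so the families are not complete. HNRNPR was carried by 2 identifiers, which were kept apart.

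The muscle came from 13 unrelated female pigs, aged 6 months, of the sire lines Hampshire and Pietrain, kept alike and slaughtered at a similar body weight. Within each breed the pigs were picked from a larger population as extremes of loin weight, so the groups were not random samples of the breed. There were 3 Hampshire pigs of high loin weight (pigs 8, 9 and 10), 3 Hampshire pigs of low loin weight (1, 2 and 3), 4 Pietrain pigs of high loin weight (1, 2, 6 and 7) and 3 Pietrain pigs of low loin weight (3, 5 and 8). No pig was treated, each pig gave 1 library, and pig numbers were used separately within each breed. The counts of each breed came in a table of their own, so a difference between breeds and any difference between the handling of these tables cannot be told apart.

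Splicing removes introns from pre-mRNA and joins exons in alternative combinations. SR proteins (SRSF genes) bind exonic enhancers through their RNA recognition motifs and recruit the splicing machinery through arginine and serine rich tails, whereas many heterogeneous nuclear ribonucleoproteins (HNRNP genes) coat the nascent transcript and often repress exon inclusion. The RBM genes share a name for an RNA-binding motif and not a single role: in striated muscle RBM20 regulates titin splicing and RBM24 promotes muscle-specific exons, and others act in RNA decay, the minor spliceosome or the cold response.

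Total counts ranged from 11312755 to 20134612 per pig. Levels are given as CPM, that is counts scaled to library size on 1 TMM scale over all pigs. They depend on gene length and were compared between pigs and never between genes. In the bulk tissue, fewer cells of a type and less RNA per cell cannot be told apart. The summed CPM of 7 skeletal myofibre markers was 191872 to 277870 in Hampshire high, 146377 to 222740 in Hampshire low, 103650 to 180708 in Pietrain high and 123963 to 142285 in Pietrain low pigs, with none of the 7 at 0. The summed CPM of 8 macrophage markers was 151 to 217, 50.6 to 127, 19.8 to 58.5 and 18.4 to 28.0 in the same order of groups. The 6 fibroblast markers summed to 1915 to 4929, 743 to 1603, 841 to 2295 and 956 to 1593 CPM. No matched marker of these lists was at 0, and the part of these cell types in the results below was not tested. The Pietrain high pig 7 stood apart from the other Pietrain pigs in that its rank correlation, across genes, between the deviation from the 13-pig mean and the chromosomal span of the gene was -0.04, against 0.21 to 0.34 in the other 6. The same correlation was -0.41 to -0.34 in Hampshire high and -0.09 to 0.03 in Hampshire low pigs, so it differed between the groups as well.

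On the TMM scale the summed level of the 63 genes separated the breeds. In Hampshire pigs it was 2444 to 2793 CPM at high and 2765 to 3104 CPM at low loin weight, and in Pietrain pigs 3288 to 4072 CPM at high and 3519 to 4309 CPM at low loin weight. On this scale every Hampshire pig was below every Pietrain pig, and the loin weight groups overlapped in both breeds. As a share of all counts the genes made up 0.206% to 0.263%, 0.278% to 0.336%, 0.327% to 0.458% and 0.379% to 0.417% in Hampshire high, Hampshire low, Pietrain high and Pietrain low pigs. By that share Hampshire low pig 3 was above Pietrain high pig 7, and the Hampshire loin weight groups did not overlap. The 95% Wilson interval of a single pig's share reached at most 0.0036 percentage points to either side, which covers counting error only. A filter on low counts kept 60 of the 63 genes in each comparison. RBM44, RBM46 and RBM47 did not pass it, with 2, 0 and 14 counts over all pigs.

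**Figure D1:**
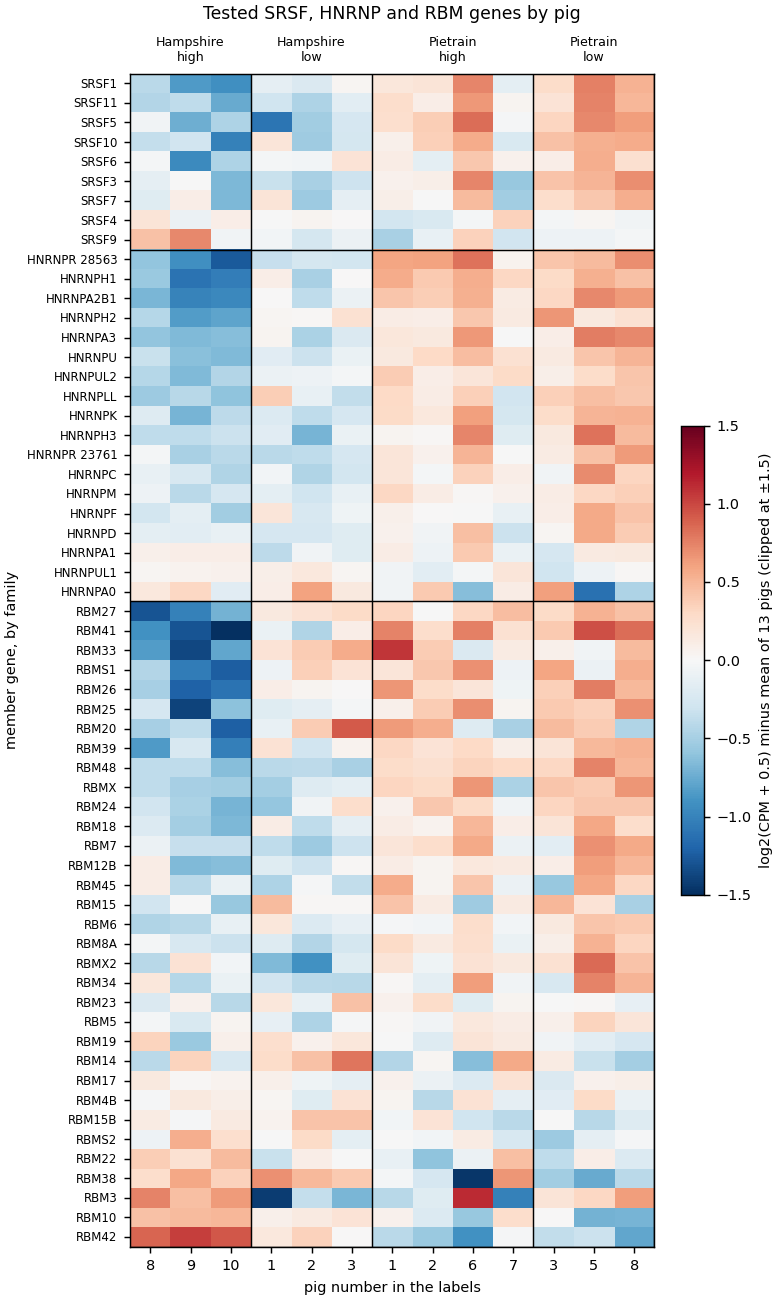
Level of each of the 60 tested genes (rows, by family) in each of the 13 pigs (columns, by group), as log2(CPM + 0.5) minus the mean of the gene over all pigs, with colours clipped at 1.5 either way. Most rows run from blue in the Hampshire pigs to red in the Pietrain pigs, while RBM42, RBM10 and RBM38 at the bottom run the other way.

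The first comparison asked which of these genes differ with muscle mass in Hampshire pigs. The genes RBM3 and RBM42 were higher in the high loin weight pigs, and 11 genes were lower: SRSF1, HNRNPA2B1, HNRNPH1, HNRNPH2, 1 of the HNRNPR identifiers, RBM20, RBM26, RBM27, RBM33, RBM41 and RBMS1. A gene was called when its Benjamini-Hochberg adjusted p from the edgeR quasi-likelihood test was under 0.05 and its fold change at least 1.2. These 13 of 60 genes, 21.7%, compare with 26.6% of all 12228 genes tested. Of all genes 12.0% were called higher and 14.6% lower, and the 11 lower genes were 18.3% of the 60. At an unadjusted p under 0.05 there were 21 of 60, beside 41.2% of all genes. The share of calls was thus near the background in the lower direction and below it in the higher direction. The median log2 fold change of the 60 genes was -0.20, against 0.03 for all genes, and 40 of the 60 were below 0. Groups did not overlap for 23 of the 60, namely 6 higher and 17 lower, beside 45.9% of all genes, of which 22.4% higher and 23.5% lower.

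The largest rise was that of RBM3, an RNA chaperone known for its induction by mild cold. Its level was 36.2, 29.5 and 33.6 CPM in Hampshire high pigs 8, 9 and 10, and 7.65, 16.6 and 13.2 CPM in low pigs 1, 2 and 3. The groups did not overlap, and the log2 fold change was 1.41 (SE 0.26, adjusted p = 0.00747). RBM42, an RNA-binding protein that associates with HNRNPK, measured 68.2, 76.5 and 70.6 CPM in the high and 41.3, 47.0 and 36.9 CPM in the low pigs. Its 3 high pigs were above every other pig of the study, with a log2 fold change of 0.78 (SE 0.156, adjusted p = 0.00977).

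Among the genes that fell, RBM33 had the smallest p. It encodes an RNA-binding protein linked to the m6A demethylase ALKBH5 and lies on chromosome 18, from 2689188 to 2795075 (Sscrofa10.2). RBM33 measured 6.27, 4.18 and 6.52 CPM in the Hampshire high pigs and 13.4, 15.2 and 17.2 CPM in the low pigs. The high pigs were lower without overlap, with a log2 fold change of -1.43 (SE 0.221, adjusted p = 0.00434). RBM41, a protein of the minor spliceosome encoded on chromosome X, measured 13.3, 10.1 and 8.57 CPM in the high and 23.8, 18.5 and 27.3 CPM in the low pigs, again with no overlap (log2 fold change -1.12, SE 0.222, adjusted p = 0.00925).

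RBM26 and RBM27 encode related zinc finger proteins that link polyadenylated nuclear RNA to the exosome. RBM26 measured 10.0, 5.91 and 6.4 CPM in the high pigs and 15.5, 14.9 and 14.5 CPM in the low pigs (log2 fold change -1.01, SE 0.222, adjusted p = 0.0134). RBM27 was counted thinly, with 2, 3 and 7 counts in the high pigs and 20, 27 and 20 counts in the low pigs. The 3 high pigs were below every other pig of the study for both genes. For RBM27 the ratio of the summed high to the summed low counts, scaled for library size, was 0.222, with an exact 95% counting interval of 0.109 to 0.414. Its fitted log2 fold change was -2.15 (SE 0.482, adjusted p = 0.0143).

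RBM20, the regulator of titin splicing, was at 5.72, 6.27 and 3.26 CPM in the high and 7.65, 11 and 16.1 CPM in the low pigs. The groups stood next to each other without overlap, and the low pigs differed among themselves by more than any high pig differed from the nearest low pig (log2 fold change -1.2, SE 0.325, adjusted p = 0.0276). RBM24, which promotes muscle-specific exons, was at 159, 139 and 119 CPM in the high and 129, 188 and 233 CPM in the low pigs. These groups overlapped and RBM24 was not called (log2 fold change -0.40, SE 0.221, adjusted p = 0.204). RBM38, also known from muscle differentiation and from the control of mRNA stability, was not called either, at 211 ± 24.9 CPM (SD, n = 3) in high and 230 ± 24.7 CPM (SD, n = 3) in low pigs.

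Of the 18 HNRNP identifiers 4 (22.2%) fell and none rose, beside 14.6% of all genes lower and 12.0% higher. HNRNPA2B1, which reads exonic and intronic elements to skip or include exons, measured 163, 131 and 133 CPM in the high and 261, 200 and 246 CPM in the low pigs (log2 fold change -0.74, SE 0.176, adjusted p = 0.0178). All 3 high pigs were below all 3 low pigs. The gene model counted as HNRNPA2B1 (ENSSSCG00000015836, chromosome 15, 59810834 to 59811895) spans only 1062 bases and the reference list gives the symbol to another identifier, so its reads may belong in part to a near-identical copy and its values are uncertain. HNRNPH1 and HNRNPH2 encode close paralogs that bind G-rich elements, and reads could be shared between them. HNRNPH1 measured 84.9, 57.8 and 61.0 CPM in the high and 135, 89.3 and 126 CPM in the low pigs (log2 fold change -0.79, SE 0.218, adjusted p = 0.0296). HNRNPH2 measured 10.0, 7.45 and 7.67 CPM in the high and 13.9, 13.8 and 16.1 CPM in the low pigs (log2 fold change -0.80, SE 0.185, adjusted p = 0.0158). Neither gene had overlapping groups, and for both the closest pair was high pig 8 and low pig 2. The identifier counted as HNRNPH2 lies on an unplaced scaffold and the reference list gives the symbol to another identifier, so its identity is uncertain. The 2 HNRNPR identifiers went apart: ENSSSCG00000028563, on an unplaced scaffold, fell (log2 fold change -0.63, SE 0.197, adjusted p = 0.0448), while ENSSSCG00000023761, a model of 1593 bases on chromosome 6, had a log2 fold change of 0.05 (SE 0.171, adjusted p = 0.84). Reads of HNRNPR may have been divided between them.

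SRSF1, the first described SR protein, was the only SRSF gene of 9 (11.1%) that was called in Hampshire, beside 26.6% of all genes. It measured 67.6, 49.5 and 47.4 CPM in the high and 81.9, 76.9 and 91.9 CPM in the low pigs (log2 fold change -0.61, SE 0.178, adjusted p = 0.0345). The high pigs were lower without overlap. SRSF3, the smallest SR protein, had 70.1, 76.5 and 47.8 CPM in high and 60.9, 54.7 and 62.0 CPM in low pigs, so that its groups overlapped (log2 fold change 0.12, SE 0.19, adjusted p = 0.663). SRSF10, a splicing repressor when dephosphorylated, had a log2 fold change of -0.36 (SE 0.255, adjusted p = 0.314). HNRNPC, which binds uridine tracts, had a log2 fold change of -0.03 (SE 0.171, adjusted p = 0.926) and the C-rich element binder HNRNPK one of -0.14 (SE 0.175, adjusted p = 0.587). HNRNPA1, a repressor of exon inclusion, was at 129 to 131 CPM in the high and 93.4 to 118 CPM in the low pigs, without overlap, and was not called (log2 fold change 0.29, SE 0.151, adjusted p = 0.174). HNRNPU, a nuclear scaffold protein, had a log2 fold change of -0.34 (SE 0.158, adjusted p = 0.137).

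**Figure D2:**
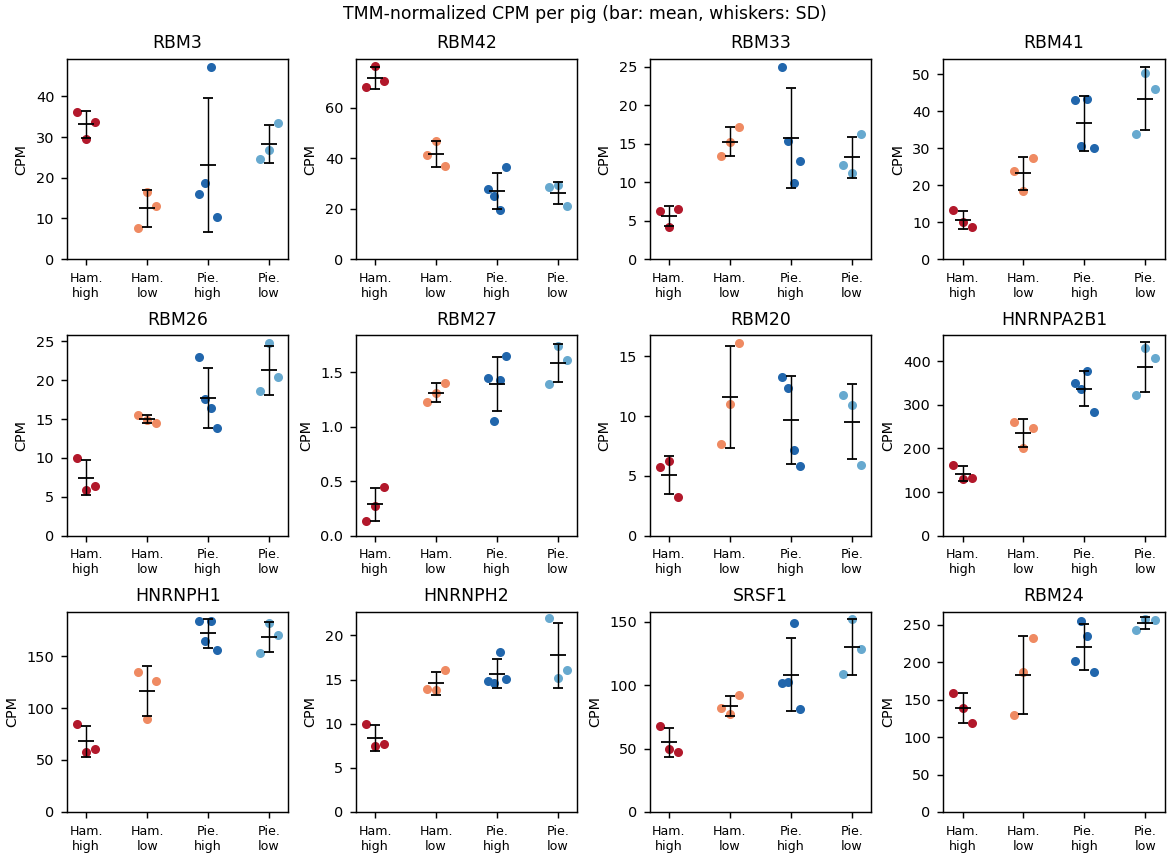
CPM of 12 genes in each pig by breed and loin weight group, each axis starting at 0, with the group mean as a bar and the SD as whiskers (n = 3, and 4 in Pietrain high). In Hampshire the high loin weight pigs are set apart from the low ones in all panels but RBM24, whereas in Pietrain the loin weight groups overlap in every panel. All genes but RBM20 and RBM24 were picked for being called in Hampshire without overlap, so their separation there follows from the choice. Of the genes shown, only RBM33 was called for a loin weight effect that differed between the breeds.

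Single pigs decided part of the Hampshire calls. The number of genes called lower, 11 with all pigs, was 3 without Hampshire high pig 10, 7 without low pig 2 and 2 without low pig 3. The calls over all genes fell as well, from 26.6% with all pigs to 9.8% without low pig 3. Across the 6 fits that left out 1 pig they ran from 9.8% to 24.2%, so calls were lost outside these families as well. In either direction 13 genes of the families were called with all pigs, 3 without low pig 3 and 5 without high pig 10. Over all genes the numbers were 3256, 1224 and 1760. Whether these families lost a larger part of their calls was not tested. RBM3, RBM33 and RBM41 were called in each of the 6 fits that left out 1 pig, RBM27 and RBM42 in 5, HNRNPA2B1, HNRNPH2 and RBM26 in 4, RBM20 in 3, HNRNPH1 and RBMS1 in 2, and SRSF1 and the HNRNPR identifier in 1. Across all genes the Hampshire fold change fell with the chromosomal span of the gene (Spearman's rho -0.39 over 9945 genes), and over the 59 tested genes of these families with coordinates rho was -0.20. The called lower genes had a median span of 30931 bases (n = 10), the other tested members 10664 bases (n = 49) and all genes 18949 bases. With the span trend removed in each pig, 14 of 59 were called lower and 2 higher, beside 13.0% and 10.3% of all genes. The HNRNPR identifier and RBMS1 were then no longer called, RBM20 could not be tested for lack of coordinates, and HNRNPA3, HNRNPU, HNRNPUL2, RBM14, RBM15 and SRSF6 were added. Of the marker lists, 3 of 6 fibroblast, 2 of 8 macrophage, 2 of 7 myofibre, 2 of 4 adipocyte and 2 of 5 endothelial genes were called higher in the same comparison, beside 12.0% of all genes. A single gene each of the myofibre and adipocyte lists was called lower, and no satellite cell, lymphocyte or erythroid marker was called. The part of these cells in the calls was not tested.

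In Pietrain, none of the 60 genes was called between high and low loin weight by edgeR or by DESeq2, where 0.0% of all 12065 genes were called by edgeR and 0.00829%, a single gene that was lower, by DESeq2. With DESeq2 at the same thresholds the paper reported genes that differed in Pietrain, and fewer in Hampshire than were called here. The reason for this gap was not tested. None of the 60 reached an unadjusted p under 0.05 by edgeR, compared with 3.3% of all genes, and 1 HNRNP gene did by DESeq2 (unadjusted p = 0.0494). The smallest unadjusted p by edgeR was that of HNRNPF, a G-tract binding protein, at 150, 143, 142 and 132 CPM in the high and 152, 211 and 191 CPM in the low pigs (log2 fold change -0.35, SE 0.167, unadjusted p = 0.064, adjusted p = 0.939). HNRNPF and RBMX2, which encodes a protein associated with the U2 snRNP, were the only genes whose Pietrain groups did not overlap, both with the high pigs lower, beside 4.59% of all genes, of which 2.51% lower and 2.08% higher. RBMX2 is named because this count was small, after its values were seen. It was counted thinly, and its groups all but touched. The highest high pig, pig 6, had 1.558 CPM from 24 counts, and the lowest low pig, pig 3, had 1.560 CPM from 19 counts. SRSF7 (-0.34, SE 0.233), RBM6 (-0.24, SE 0.174) and RBM10 (0.38, SE 0.274) followed in order of p, each with an adjusted p of 0.939. The median log2 fold change was -0.13 over the 60 genes and 0.02 over all genes, with 40 of the 60 below 0. RBM3, with 16.0, 18.8, 47.1 and 10.4 CPM in the high and 24.6, 26.8 and 33.4 CPM in the low pigs, had a log2 fold change of -0.27 with a standard error of 0.425. Pig 6 held the highest and pig 7 the lowest RBM3 value of the Pietrain pigs.

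**Figure D3:**
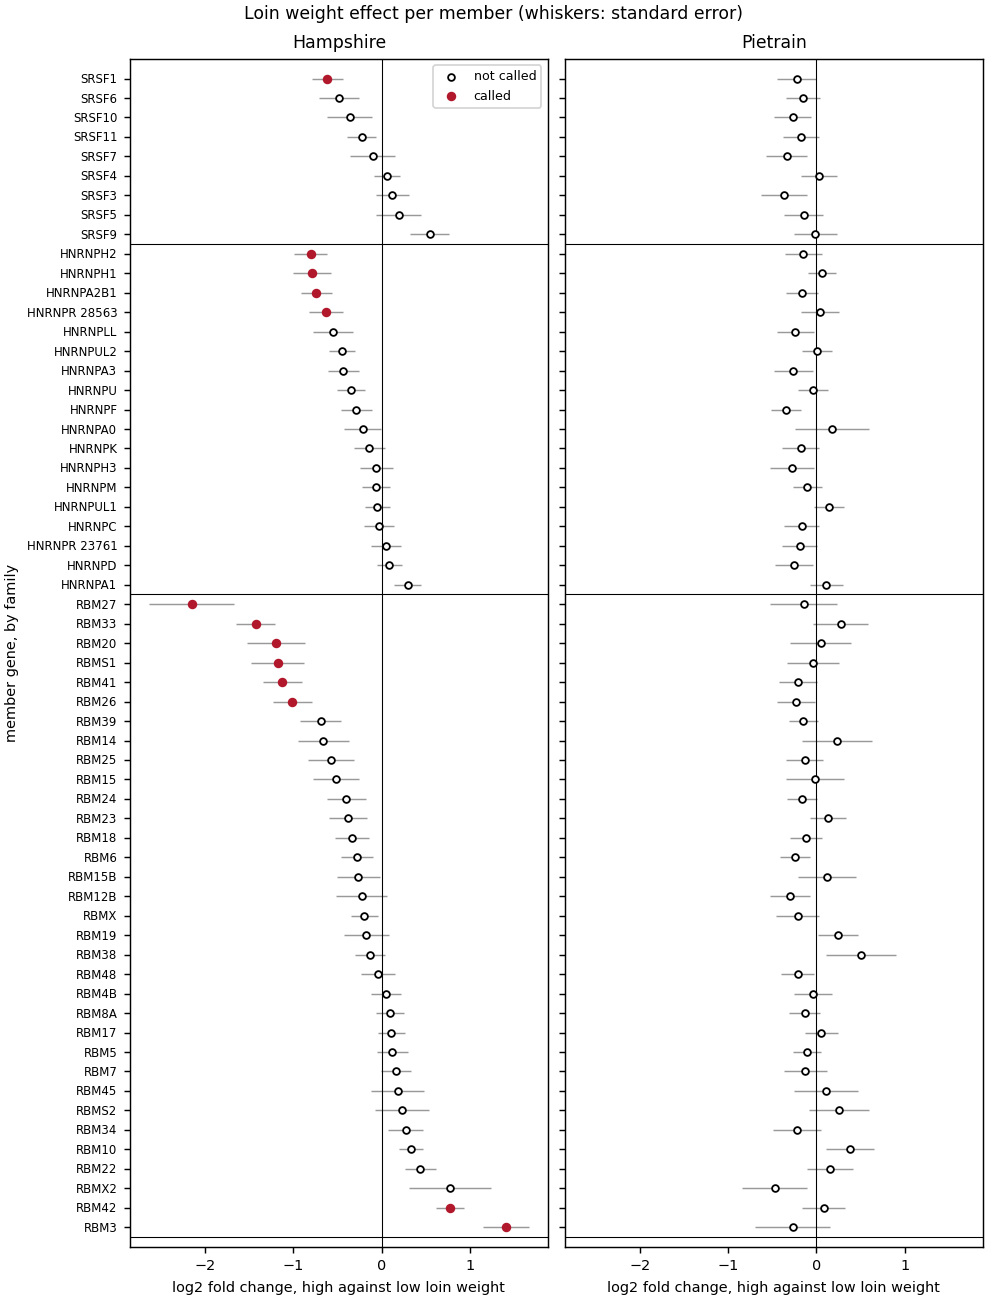
Log2 fold change of high against low loin weight with its standard error for the 60 tested genes, by family and in the same order in both panels, for Hampshire (left) and Pietrain (right). Filled points passed the call, which 13 genes did in Hampshire and none in Pietrain.

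An interaction of breed and loin weight, fitted on the 13 pigs together, tested whether the loin weight effect depended on breed. RBM33 was the only gene of the 60 called, with a log2 difference of -1.67 (SE 0.419, adjusted p = 0.033), compared with 5.9% of all 12831 genes, of which 4.22% were lower and 1.68% higher. Its Pietrain values were 25.0, 15.3, 9.93 and 12.7 CPM in the high and 12.2, 11.2 and 16.3 CPM in the low pigs, giving a Pietrain log2 fold change of 0.28 (SE 0.311). High pig 1 was above, and high pig 6 below, all 3 Pietrain low pigs. The RBM33 call was lost without Hampshire high pig 9 (adjusted p = 0.0744), Hampshire low pig 2 (0.0566) or 3 (0.077), and Pietrain low pig 3 (0.057) or 5 (0.0692), and with the span trend removed (0.0719). RBM27 (-1.98, SE 0.582, adjusted p = 0.0615), HNRNPH1 (-0.81, SE 0.269, adjusted p = 0.093) and RBM3 (1.70, SE 0.585, adjusted p = 0.104) came next and were not called. DESeq2 called RBM3 higher and RBM33 and HNRNPH1 lower, beside 9.94% of all genes, of which 3.63% higher and 6.31% lower. With the span trend removed HNRNPH1 and RBM27 were called lower, beside 4.81% of all genes, of which 3.7% lower and 1.11% higher. For the remaining genes called in Hampshire only, a difference from Pietrain was therefore not shown.

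Hampshire and Pietrain pigs of low loin weight were compared next. Hampshire pigs had lower levels of 16 genes and higher levels of 2, which was 18 of 60 beside 17.9% of all 12831 genes. Of all genes 10.1% were called lower and 7.84% higher. The lower genes were SRSF3, SRSF5 and SRSF11, 7 HNRNP identifiers (HNRNPA2B1, HNRNPA3, HNRNPH3, HNRNPK, HNRNPU and both of HNRNPR) and RBM7, RBM8A, RBM41, RBM48, RBMX and RBMX2. The median log2 fold change was -0.46 over the 60 genes and 0.00 over all genes, and 44 of the 60 were below 0. Non-overlapping groups were found for 31 genes in the lower and 7 in the higher direction, against 21.4% of all genes lower and 21.4% higher, or 42.8% in all.

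RBM48, a minor spliceosome protein, had the smallest p. It measured 7.29, 7.39 and 6.87 CPM in Hampshire low pigs and 12.3, 16.8 and 14.1 CPM in Pietrain low pigs, which lay well apart (log2 fold change -1.0, SE 0.181, adjusted p = 0.00965). The SR protein gene SRSF5 measured 15.4, 23.3 and 28.2 CPM against 42.2, 55.6 and 52.2 CPM, and SRSF11, which encodes an SR-related protein, 56.5, 50.5 and 62.6 CPM against 80.8, 117 and 98.5 CPM. Both were lower in every Hampshire low pig, with log2 fold changes of -1.17 (SE 0.267, adjusted p = 0.0161) and -0.81 (SE 0.203, adjusted p = 0.0215). The identifier counted as SRSF5 lies on an unplaced scaffold and the reference list gives the symbol to another identifier, so its identity is uncertain. In the other direction RBM38 was at 258, 224 and 209 CPM in Hampshire and 111, 93.9 and 121 CPM in Pietrain low pigs (log2 fold change 1.09, SE 0.356, adjusted p = 0.0481), and RBM42 was at 41.3, 47.0 and 36.9 CPM against 28.5, 29.3 and 21.2 CPM (0.66, SE 0.218, adjusted p = 0.0479). The groups did not overlap for either gene, but each lost its call in every one of the 6 fits that left out 1 pig of the groups compared.

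The low loin weight comparison rested on single pigs. The number of genes called in either direction was 8 without Hampshire low pig 1, 0 without pig 2, 3 without pig 3, and 1 without Pietrain low pig 5 or pig 8, but 20 without Pietrain low pig 3. The calls over all genes moved as well, to 0.828% without Hampshire low pig 2. RBM48 was called in 5 of these 6 fits and SRSF5 in 3. With all pigs DESeq2 called 25 genes lower and 2 higher, beside 15.5% and 11.4% of all genes. Over all genes the fold change fell with chromosomal span (Spearman's rho -0.21), while over the 59 tested members with coordinates rho was 0.15. With the span trend removed 24 of the members were called in either direction, beside 23.0% of all genes.

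At high loin weight the breeds differed in 28 of the 60 genes, beside 46.8% of all 12831 genes. Hampshire pigs were lower for 26 genes, 43.3% of the 60 against 24.2% of all genes, and higher for 2, RBM42 and RBM10, against 22.6% of all genes. By family, 5 of 9 SRSF, 10 of 18 HNRNP and 11 of 33 tested RBM genes were called lower. The median log2 fold change was -0.46 over the 60 genes and 0.02 over all genes, and 47 of the 60 were below 0. Groups did not overlap for 29 lower and 2 higher genes, against 24.6% and 24.0% of all genes.

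RBM41 had the smallest p. Its Hampshire high values, 13.3, 10.1 and 8.57 CPM, were far below the Pietrain high values of 43.0, 30.6, 43.3 and 29.9 CPM (log2 fold change -1.78, SE 0.235, adjusted p = 7.35e-05). HNRNPA2B1, with the short gene model named above, was at 163, 131 and 133 CPM against 350, 337, 379 and 285 CPM (log2 fold change -1.25, SE 0.176, adjusted p = 0.000113). The G-run binding HNRNPH1 was at 84.9, 57.8 and 61.0 CPM against 184, 165, 183 and 156 CPM (log2 fold change -1.34, SE 0.19, adjusted p = 0.000117). For these 3 genes every Hampshire high pig was below every Pietrain high pig. RBM42 ran the other way, at 68.2, 76.5 and 70.6 CPM against 27.8, 25.0, 19.4 and 36.3 CPM (log2 fold change 1.40, SE 0.201, adjusted p = 0.000128). RBM10, an X-linked regulator of exon skipping, was at 38.2, 39.1 and 39.8 CPM against 29.2, 24.3, 18.8 and 33.8 CPM, and was called by a narrow margin (log2 fold change 0.56, SE 0.216, adjusted p = 0.0467). RBM10 kept this call only without Pietrain high pig 7 among the 7 fits that left out 1 pig. It also lost the call with DESeq2 size factors, without the low-count filter, with only these groups in the fit and with the span trend removed.

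SRSF1 (-0.98, SE 0.217, adjusted p = 0.00241), RBM33 (-1.47, SE 0.297, adjusted p = 0.00139), RBM26 (-1.24, SE 0.229, adjusted p = 0.000723) and RBM24 (-0.67, SE 0.199, adjusted p = 0.0143) were also lower in Hampshire high pigs, without overlap. HNRNPK, RBMX and SRSF6 were called although their groups overlapped, through Pietrain high pig 7 for HNRNPK and RBMX and through pig 2 for SRSF6. For RBMX, an X-linked HNRNP family protein also known as HNRNPG, pig 7 had 54.5 CPM and the other Pietrain high pigs 93.2 to 120 CPM, against 52.9 to 58.2 CPM in the Hampshire high pigs. Without pig 7, 30 genes were called lower and 4 higher, and across the 7 fits that left out 1 pig the counts were 22 to 30 and 1 to 4. Over all genes 49.3% were called in either direction without pig 7, and 35.0% to 49.3% across the 7 fits. SRSF3 (-0.40, SE 0.251, adjusted p = 0.204), SRSF4 (0.10, SE 0.167), HNRNPA1 (0.00, SE 0.166) and RBM4B (0.13, SE 0.188) were not called. Over all genes the fold change of Hampshire against Pietrain fell with chromosomal span (Spearman's rho -0.39), and over the 59 tested members with coordinates rho was -0.19. With the span trend removed 33 of 59 genes were called lower and 2 higher, beside 24.8% and 23.4% of all genes.

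**Figure D4:**
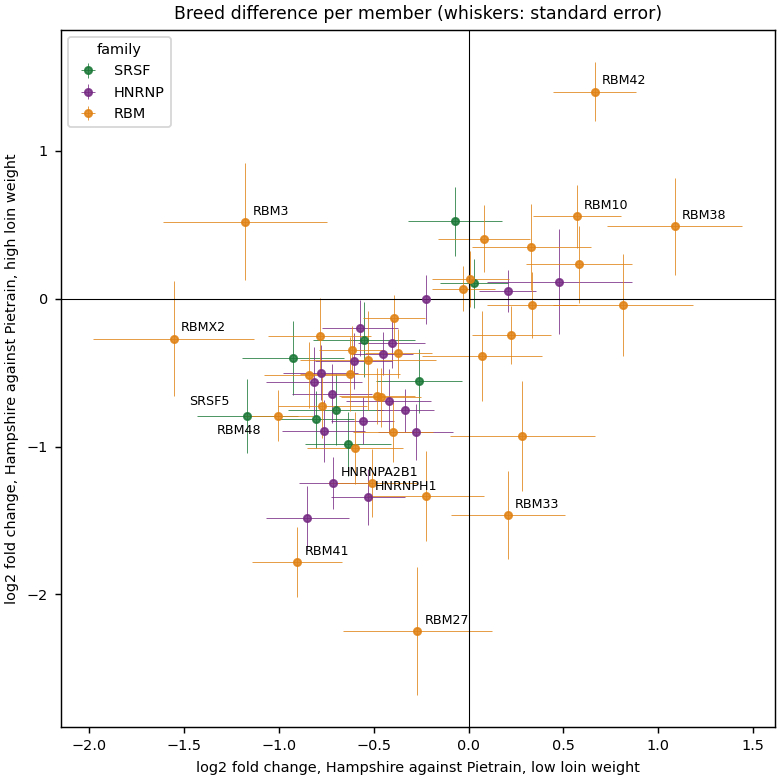
Log2 fold change of Hampshire against Pietrain at low (horizontal) and at high loin weight (vertical) for each of the 60 tested genes, coloured by family, with standard errors as whiskers. Most points lie in the lower left, that is lower in Hampshire at both loin weights, and RBM42, RBM10 and RBM38 lie in the upper right.

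The breed comparisons at low and at high loin weight share no pig, although both were taken from 1 fit. Of the 16 genes lower in Hampshire at low loin weight, 11 (68.8%) were also among the 26 lower at high loin weight (42.3%), beside 71.7% and 29.9% for the same shares over all genes. They were SRSF5, SRSF11, HNRNPA2B1, HNRNPA3, HNRNPK, HNRNPU, both HNRNPR identifiers, RBM41, RBM48 and RBMX. The low loin weight calls behind this overlap fell to 0 without Hampshire low pig 2, and RBMX lost its call there in each of the 6 fits that left out 1 pig. RBM42 was the only gene higher in both. At low loin weight 5 of 8 macrophage and 2 of 3 satellite cell markers were called higher in Hampshire, beside 7.84% of all genes, and none of the myofibre, adipocyte, endothelial, fibroblast, erythroid or lymphocyte markers. At high loin weight 8 of 8 macrophage, 3 of 7 myofibre, 4 of 6 fibroblast, 1 of 4 adipocyte, 2 of 5 endothelial, 4 of 5 lymphocyte and 1 of 3 satellite cell markers were called higher, beside 22.6% of all genes. Markers called lower in Hampshire are not given for these breed comparisons. The summed level of the 4 adipocyte markers was 233 to 352 CPM in Hampshire high and 70.2 to 198 CPM in Pietrain high pigs. The part of these cells in the lower levels of the splicing factors was not tested.

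Other genes of the splicing pathway were counted in the same fits. Of 43 core spliceosome identifiers, 8 rose and 7 fell with loin weight in Hampshire, with a median log2 fold change of 0.31, beside 12.0% of all genes higher and 14.6% lower. With the span trend removed 7 rose and 4 fell. At high loin weight 17 were higher and 9 lower in Hampshire than in Pietrain, beside 22.6% and 24.2% of all genes. At low loin weight 6 were higher and 9 lower, beside 7.84% and 10.1%. The core list was thus called in both directions. LSM7, a subunit of the U6 snRNP ring, rose from 15.6 ± 1.72 CPM (SD, n = 3) in Hampshire low to 28.8 ± 2.25 CPM (SD, n = 3) in Hampshire high pigs (log2 fold change 0.88, SE 0.165, adjusted p = 0.00779). SNRPE, of the Sm ring, rose by a log2 fold change of 0.81 (SE 0.181, adjusted p = 0.0139) and the tri-snRNP gene SART1 by 0.62 (SE 0.14, adjusted p = 0.0143). SF3B3, of the U2 snRNP, fell from 10.7 ± 1.36 to 5.02 ± 0.857 CPM (log2 fold change -1.09, SE 0.214, adjusted p = 0.00897).

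Of 36 other tested splicing regulators, 10 fell and none rose with loin weight in Hampshire, with a median log2 fold change of -0.36, beside 14.6% of all genes lower and 12.0% higher. QKI, a regulator of muscle and myelin splicing, fell from 27.6 ± 1.13 to 8.49 ± 2.42 CPM (SD, n = 3 each, log2 fold change -1.71, SE 0.215, adjusted p = 0.00237). MBNL2, of the muscleblind family, fell from 10.1 ± 0.976 to 3.41 ± 0.893 CPM, and CELF1, which opposes muscleblind proteins on many muscle exons, from 11.4 ± 0.519 to 5.05 ± 0.323 CPM, with adjusted p of 0.00434 and 0.00454. The neuronal polypyrimidine tract protein PTBP2 fell by a log2 fold change of 1.91 (SE 0.299, adjusted p = 0.00443). For QKI, MBNL2 and CELF1 the loin weight effect was also called as different between the breeds, with log2 differences of -1.59 (SE 0.33, adjusted p = 0.0142), -1.83 (SE 0.298, adjusted p = 0.00498) and -1.36 (SE 0.282, adjusted p = 0.0139). Over all genes 5.9% were called for this difference, of which 4.22% lower. Fits with 1 pig left out are not given for these genes, so the stability of their calls is not shown. At high loin weight 19 of the 36 were lower and 1 higher in Hampshire than in Pietrain, beside 24.2% and 22.6% of all genes, and at low loin weight 9 were lower and none higher, beside 10.1% and 7.84%. None of the values given for this list has the span trend removed. Over all genes the Hampshire fold change between loin weights fell with span (Spearman's rho -0.39).

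Among the kinases that phosphorylate SR proteins, SRPK1 and DYRK1A fell in Hampshire and none of the 7 rose, beside 14.6% and 12.0% of all genes. With the span trend removed 1 of the 7 was called. SRPK1 went from 14.3 ± 1.59 CPM in low to 5.18 ± 1.83 CPM in high pigs (log2 fold change -1.47, SE 0.255, adjusted p = 0.00626). Its effect was called as different from that in Pietrain (log2 difference -1.29, SE 0.33, adjusted p = 0.0358), beside 5.9% of all genes. Fits with 1 pig left out are not given for SRPK1, nor whether it kept its calls with the span trend removed. In Pietrain no gene of these 3 lists was called by edgeR. Gene counts cannot show which exons were used, so splicing itself was not measured.

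**Figure D5:**
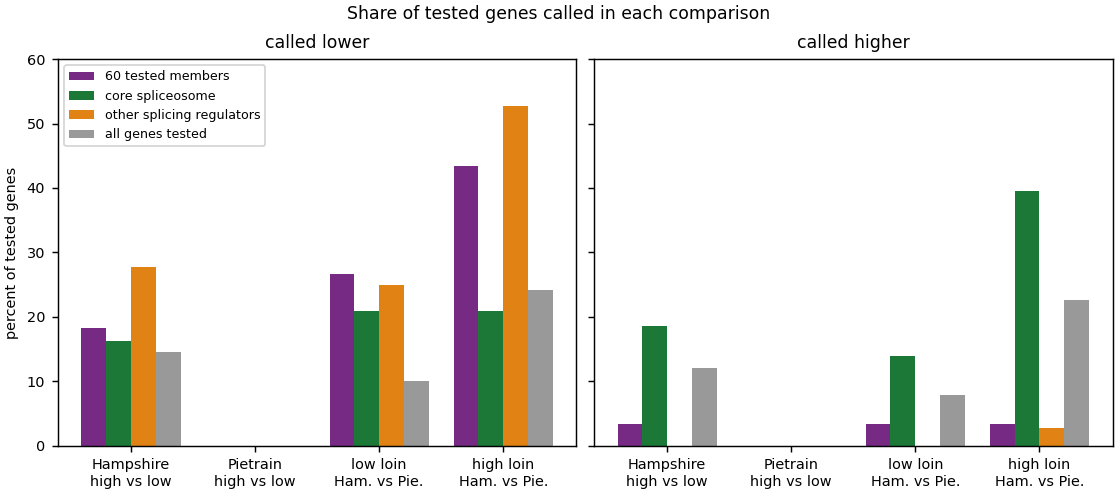
Percent of tested genes called lower (left) and higher (right) in 4 comparisons, for the 60 tested SRSF, HNRNP and RBM genes, the core spliceosome list, the other splicing regulators and all genes. At high loin weight 43.3% of the 60 genes were lower in Hampshire against 24.2% of all genes, and the higher bars of the 60 genes stay at 3.33% in the comparisons where genes were called.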

How the data were processed

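RNA-seq libraries (unstranded TruSeq kit) of 13 pigs were sequenced by the authors in 4 technical runs. Per the labels and the submitters' processing notes, FastQC, STAR, RSEM and DESeq2 were used on the Sscrofa10.2 build. The authors deposited whole-number counts per Ensembl gene, 1 table per breed. RSEM estimates may have been rounded, which the sources used here do not say. From the authors' result tables only symbols and coordinates were taken. Their remaining columns hold mean expression, fold changes and p-values and were not used.

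The 63 genes, the gene lists and the tests were chosen with earlier results of these data known. Symbols came from the deposited tables for 50 genes and from the reference list of names for 13. For 9 genes the reference gives the symbol to another identifier: HNRNPA2B1, HNRNPH2, HNRNPR (ENSSSCG00000028563), RBM14, RBM34, RBMX2, SRSF4, SRSF5 and SRSF10. On unplaced scaffolds lie 11 genes, and 59 have coordinates, none of which overlapped another gene with coordinates. No genome sequence was used here.

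Counts were tested with edgeR 4.0.16 (R 4.3.3): filterByExpr by group, TMM, and the quasi-likelihood test, with p adjusted over all genes tested. Loin weight was fitted within each breed. Breed and the difference of loin weight effects came from 1 fit over all pigs. Calls needed a fold change of 1.2 or more besides an adjusted p below 0.05, and for the difference of effects the adjusted p alone. The SE is the fold change divided by the root of F. An exact two-sided permutation test could not go below p = 0.1 for 3 against 3 pigs or 0.0571 for 4 against 3, so it was not used for calls. All 15 pairs of pigs of 1 group differed beyond sampling noise. Scripts were tested on simulated data. Genes were named by rule: per family and direction up to 4 called in Hampshire without overlap, the 4 smallest p in Pietrain and of the difference of effects, up to 3 per direction in each breed comparison, the 2 most counted per family, and members of known role. Up to 4 genes per list were named by the smallest Hampshire p. Other genes are named only where a count of calls is spelled out, after their values were seen. Alternatives were DESeq2 1.42.0, its size factors, no filter, at least 10 counts in every pig, the gene span trend removed by lowess in each pig, other sets of pigs in the fit, no fold threshold, and each pig left out. Of the lists of splicing pathway genes, 1 is not reported here.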

Additional observations from a re-analysis of the deposited data

Results flagged for a closer look

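Of the groups of 4 pigs, Pietrain high held values for which 1 pig lay far from the other 3. For HNRNPH2 the highest pig, pig 6, had 18.2 CPM, and the other 3 had 14.6 to 15.1 CPM. For RBM6 pig 6 had 41.3 CPM, and the other 3 had 33.2 to 33.8 CPM. The distance was judged for 29 genes, and chance flags about 1 in 20 groups.

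RBM33 had a loin weight effect that differed between Hampshire and Pietrain, with a log2 difference of -1.67 (SE 0.419, adjusted p = 0.033 by the edgeR quasi-likelihood test). The 3 Hampshire high pigs were below the 3 low pigs, and the Pietrain groups overlapped. The call was lost in 5 of the 13 fits that left out 1 pig.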

How the results depend on the processing

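No fold change of a named gene that was called changed direction under the alternatives run. Medians near 0 did: the all-gene median was 0.03 in Hampshire and -0.03 without the low-count filter. Of the recomputed values of named genes, 243 kept their side of the threshold, 10 lost and 4 gained it when no pig was left out, and 260 kept, 93 lost and 4 gained it with 1 pig left out. The 243 include exact permutation tests within each breed, rerun with 1 instead of 0.5 added to the CPM. With so few pigs these could not reach a p under 0.05, so they say nothing about stability. Both kept totals also hold the 4 genes named for Pietrain. In every edgeR fit there 0.0% of all genes were called, so these kept values say little about stability either. For the difference of loin weight effects, DESeq2 called 1 gene higher (RBM3) and 2 lower (RBM33 and HNRNPH1), and removal of the gene span trend gave 2 lower (HNRNPH1 and RBM27), against 0 and 1. Without the low-count filter the median difference over all genes was -0.13. At low loin weight DESeq2 called 25 genes lower in Hampshire against 16, and 2 higher became 0 with DESeq2 size factors and 1 without the filter. At high loin weight 2 higher became 1 with DESeq2 size factors, without the filter, or with only these groups in the fit; the causes were not tested. With 1 pig left out, counts ran from 1 to 2 higher and 2 to 13 lower in Hampshire, stayed at 0 in Pietrain, ran from 0 to 1 and 0 to 2 for the difference of effects, from 0 to 2 and 0 to 18 between breeds at low loin weight, and from 1 to 4 and 22 to 30 at high loin weight. In the same fits the calls over all genes ran from 9.8% to 24.2% in Hampshire and from 2.86% to 8.21% for the difference of effects. Between breeds they ran from 0.828% to 19.7% at low and from 35.0% to 49.3% at high loin weight. No paired analysis was possible because the groups compared have fewer than 2 pig numbers in common and the numbers were given within each breed. RBM27, with 2 to 7 counts in Hampshire high pigs, was limited by depth.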
